A study of Homo sapiens with 5 samples.

Results

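Transcripts of the nuclear genes for subunits of respiratory complexes II to V were compared between REH leukaemia cells taken from the brain and those taken from the spleen of transplanted mice. A gene was taken where it is annotated as human protein-coding, where its symbol is SDHA, SDHB, SDHC, SDHD or CYC1 or begins with UQCR, COX4I, COX5, COX6, COX7, COX8 or ATP5, and where its counts over the 5 libraries summed to at least 10. This gave 47 of 51 genes with such symbols, out of 65217 gene identifiers in the deposited table. Complex II has 4 of them, complex III 10, complex IV 13 and complex V 20. The 4 genes under the minimum were the tissue isoforms COX4I2 and COX6A2, with 0 counts each, COX7A1, with 6, and COX7B2, with 1. For COX4I2 and COX6A2, 0 counts in 227893666 allow a level of up to 0.0132 CPM (counts scaled to library size), for counting error only.

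REH is an established precursor B cell acute lymphoblastic leukaemia line with the ETV6-RUNX1 (TEL-AML1) fusion. All libraries share this line and its host, NOD.Cg-PrkdcscidIl2rgtm1Wjl/SzJ (NSG) mice transplanted at 6 to 10 weeks of age, which lack mature lymphocytes of their own. The 3 brain libraries hold cells from the leptomeninges and the 2 spleen libraries cells from the spleen, purified on a Ficoll gradient, with RNA of 5 mice pooled per library. Pools were made on 3 occasions, a replicate number is taken to mark the occasion, and spleen replicate 3 failed the submitters' quality control. The spleen columns carry other numbers than their titles, so which libraries share an occasion is uncertain. Human genes held 38387991 to 48656936 estimated counts in brain libraries, and 46005806 and 48764202 in spleen libraries. Mouse transcripts took 5.70%, 2.58% and 2.64% of all estimated counts in brain replicates 1 to 3, against 6.33% and 8.87% in spleen replicates 1 and 2. Of 13 precursor B cell markers, 11 stood at 1 TPM (transcript level scaled for length and depth) or more in every library, while VPREB1 was at 0 throughout. The 3 T cell markers summed to at most 0.189 TPM, and the 4 erythroid markers to at most 0.797 TPM. Precursor B cell markers summed to 5643, 6026 and 5654 TPM in the brain libraries, against 6884 and 7305 TPM in the spleen libraries. The 4 myeloid markers, of which 1 reached 1 TPM in every library, summed to 12.9, 21.0 and 13.0 TPM in the brain libraries, against 10.6 and 10.9 TPM in the spleen libraries. The 4 glial or neuronal markers, of which 3 did, summed to 11.2, 10.6 and 10.5 TPM in the brain libraries, against 8.03 and 8.31 TPM in the spleen libraries, and SNAP25 was at 0 counts. The part of these marker and mouse shares in the results was not tested.

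Complex II (succinate dehydrogenase) feeds electrons from the tricarboxylic acid cycle into ubiquinone. Complex III (the cytochrome bc1 complex) passes them to cytochrome c, complex IV (cytochrome c oxidase) passes them to oxygen, and complex V (ATP synthase) uses the resulting proton gradient to make ATP. Complexes III to V are built from nuclear subunits together with a few subunits encoded in mitochondrial DNA, whereas complex II is entirely nuclear. Lymphoid leukaemia cells use both oxidative phosphorylation and glycolysis.

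In cells from brain, 11 of the 46 members that passed the filter on low counts were lower than in cells from spleen, 0 were higher and 35 did not pass the test. Of all 20419 genes tested, 3.50% were called lower and 6.01% higher. The lower members were UQCR10, UQCRC1 and CYC1 of complex III, COX8A, COX7B and COX5B of complex IV, and ATP5ME, ATP5MC1, ATP5PD, ATP5MF and ATP5IF1 of complex V. Their levels in brain were lower by between 24.2% (ATP5IF1) and 38.6% (ATP5ME). Over the 46 tested members the median log2 fold change, brain over spleen, was -0.38, against 0.0066 over all genes tested. A negative log2 fold change was found for 42 of 46 members, against 49.3% of all genes. Every brain library lay below both spleen libraries for 25 of 46 members (19.5% of all genes) and above both for 2 (23.3% of all genes). In bulk RNA, fewer cells with a transcript and less of it per cell cannot be told apart.

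Calls rest on edgeR's quasi-likelihood F test with Benjamini-Hochberg adjustment over all genes tested and a threshold of 0.05. At an unadjusted p under 0.05, 27 members were lower and 0 higher, against 11.3% of all genes lower and 14.2% higher. The DESeq2 Wald test called 17 members lower and 0 higher (6.94% of all genes were lower). With the occasion as a replicate block edgeR called 18 lower and 0 higher, where 3.97% of all genes were lower. Calls numbered 11 with DESeq2 size factors (3.70% of all genes), 13 with upper-quartile scaling (4.21%), 25 with no filter on low counts (3.46%), 10 with summed transcript estimates (3.15%) and 11 with limma on the rlog values (3.60%). With brain replicate 1 left out it was 0 (0.728% of all genes), with 17 members lower at an unadjusted p under 0.05 (8.06% of all genes). It fell to 1 on leaving out brain replicate 2 (1.25% of all genes), and to 9 on leaving out brain replicate 3 (2.27%). Omitting spleen replicate 1 gave 1 (1.36%), whereas omitting spleen replicate 2 gave 25 (3.87%). The member still called on leaving out brain replicate 2, or spleen replicate 1, was ATP5MC1. Without brain replicate 3 the calls of CYC1, UQCRC1 and COX5B were lost, and without spleen replicate 2 that of ATP5IF1. Adjusted p-values of the 11 genes reached at most 0.201 over all leave-one-out fits, and their fold changes stayed negative in each.

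**Figure D1:**
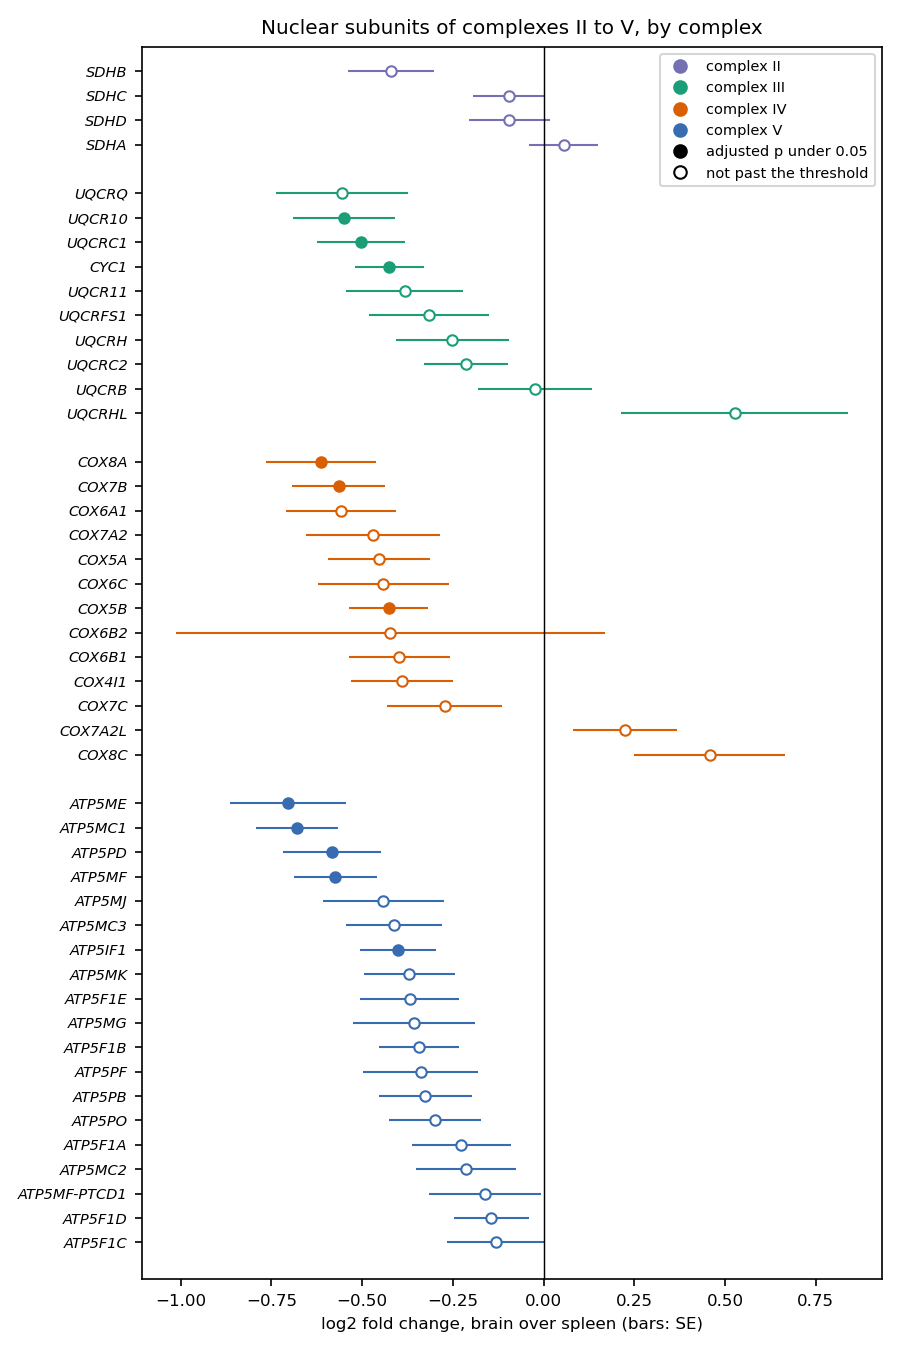
Log2 fold change of each of the 46 tested members, brain over spleen, with SE bars, grouped by complex. Filled points are the 11 members past the adjusted threshold, and 42 of 46 points lie left of 0.

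Promoters of the members were searched for motifs of known regulators of respiratory genes and for the hypoxia core. RefSeq windows (GRCh38.p14) from 250 bases before to 50 bases after the gene start were found for 36 of the 47 members, 42 windows in all. The letters CCGGAAGT, a core bound by ETS factors such as GABPA, stood on either strand in 10 of the 42 windows (23.8%), against 4.14% of 35116 human promoter windows. The palindromic NRF1 motif stood in 2 (4.76%, against 1.24% of all windows), and the YY1 motif in 2 (4.76%, against 0.849%). ACGTG, the core of the hypoxia response element, stood in 9 (21.4%, against 21.4%). SDHD had both the ETS and the NRF1 letters, and UQCR11 both the ETS letters and ACGTG. These are matches of letters, not measured binding sites. Of the members with the ETS letters, COX8A, COX5B and ATP5PD were called lower in brain. ATP5F1A, ATP5MK, ATP5PF, SDHD, UQCR11, UQCRH and UQCRQ hold them too and were not called. A link between the letters and the calls was not tested. The windows of 5 members that were lower in brain are shown 5′ to 3′ on the gene's strand, with the matched letters in capitals. COX8A, COX5B and ATP5PD were taken because they hold the ETS letters, UQCRC1 for the YY1 letters, and ATP5MC1 as the member whose call was lost in 1 of 5 leave-one-out fits.
COX8A (chr11:63974370-63974669, plus strand): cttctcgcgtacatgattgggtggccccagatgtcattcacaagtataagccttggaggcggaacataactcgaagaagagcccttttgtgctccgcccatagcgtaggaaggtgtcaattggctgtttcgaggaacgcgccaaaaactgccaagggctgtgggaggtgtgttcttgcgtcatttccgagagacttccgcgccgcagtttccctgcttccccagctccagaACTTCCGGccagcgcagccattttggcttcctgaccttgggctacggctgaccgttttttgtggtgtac
COX5B (chr2:97645812-97646111, plus strand): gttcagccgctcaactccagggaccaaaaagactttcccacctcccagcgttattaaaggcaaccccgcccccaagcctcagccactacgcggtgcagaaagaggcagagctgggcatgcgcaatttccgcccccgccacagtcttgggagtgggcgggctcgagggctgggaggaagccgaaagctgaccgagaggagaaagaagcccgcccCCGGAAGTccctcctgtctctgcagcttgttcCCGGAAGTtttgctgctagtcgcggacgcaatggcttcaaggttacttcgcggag
ATP5PD (chr17:75046920-75047219, minus strand): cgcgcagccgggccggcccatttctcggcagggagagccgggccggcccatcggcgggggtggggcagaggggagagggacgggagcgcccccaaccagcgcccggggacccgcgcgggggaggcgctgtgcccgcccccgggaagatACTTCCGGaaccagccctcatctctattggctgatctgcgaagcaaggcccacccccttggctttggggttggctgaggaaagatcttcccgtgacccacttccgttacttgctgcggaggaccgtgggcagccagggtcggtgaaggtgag
UQCRC1 (chr3:48609597-48609896, minus strand): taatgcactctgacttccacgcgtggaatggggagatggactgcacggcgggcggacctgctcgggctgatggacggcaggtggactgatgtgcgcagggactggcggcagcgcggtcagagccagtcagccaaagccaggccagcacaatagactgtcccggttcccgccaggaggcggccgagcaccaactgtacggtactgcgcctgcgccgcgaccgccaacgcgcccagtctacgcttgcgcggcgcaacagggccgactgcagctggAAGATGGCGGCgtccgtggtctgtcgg
ATP5MC1 (chr17:48892537-48892836, plus strand): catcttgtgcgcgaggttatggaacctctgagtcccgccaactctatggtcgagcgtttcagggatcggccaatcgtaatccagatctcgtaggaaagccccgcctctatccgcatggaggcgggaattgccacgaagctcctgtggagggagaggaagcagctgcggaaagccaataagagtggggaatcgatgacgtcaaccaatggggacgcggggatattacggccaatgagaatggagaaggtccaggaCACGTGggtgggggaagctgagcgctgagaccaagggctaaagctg
Counting the first base of the gene in RefSeq as 1, the ETS letters begin at -19 in COX8A, at -37 and -5 in COX5B and at -102 in ATP5PD, in the reverse orientation (ACTTCCGG) in COX8A and ATP5PD. The YY1 letters begin at 24 in UQCRC1. For UQCRC1, ATP5PD and ATP5MC1 the RefSeq start lies inside the gene interval that GENCODE gives, downstream of its first base, and for UQCRC1 the whole window does. In ATP5MC1 the capitals mark CACGTG, which holds the hypoxia core on both strands.

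Complex II showed 0 calls by edgeR, with 1 of 4 members lower at an unadjusted p under 0.05 (11.3% of all genes). SDHA, the flavoprotein that oxidises succinate, stood at 165, 169 and 177 CPM in the brain libraries, against 168 and 159 CPM in the spleen libraries. The groups overlapped, with a log2 fold change of 0.06 (SE 0.09, adjusted p = 0.779 by edgeR). SDHB, the iron-sulfur subunit, stood at 75.4, 71.6 and 83.8 CPM in the brain libraries, against 113 and 92.5 CPM in the spleen libraries. Both spleen libraries lay above all brain libraries, but the log2 fold change of -0.42 (SE 0.12) missed the threshold (edgeR adjusted p = 0.0587). The membrane anchors SDHC and SDHD, which bind ubiquinone, had log2 fold changes of -0.09 (SE 0.10) and -0.09 (SE 0.11), and for each the libraries of the groups overlapped. In length-corrected levels the 4 subunits lay close together, with means over the 5 libraries between 109 TPM for SDHA and 141 TPM for SDHC. Their summed level was 459, 454 and 499.9 TPM in the brain libraries, against 515 and 538 TPM in the spleen libraries.

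In complex III, 3 of 10 members were lower in brain and 0 higher (3.50% and 6.01% of all genes), with a median log2 fold change of -0.35. CYC1 (ENSG00000179091, GRCh38 chr8:144095039-144097525), the cytochrome c1 that hands electrons to cytochrome c, stood at 135, 147 and 146 CPM in the brain libraries, against 196 and 187 CPM in the spleen libraries. The groups were apart and each was tight, at 143 ± 6.45 CPM in brain (SD, n = 3) and 192 ± 5.89 CPM in spleen (SD, n = 2), a log2 fold change of -0.42 (SE 0.09, adjusted p = 0.027 by edgeR). UQCRC1 (ENSG00000010256, GRCh38 chr3:48599002-48610976), a core protein of the matrix side, stood at 89.2, 95.2 and 98.1 CPM in the brain libraries, against 150.2 and 117 CPM in the spleen libraries. Here the spleen libraries differed from each other by more than the brain libraries did, and the log2 fold change was -0.50 (SE 0.12, adjusted p = 0.0353 by edgeR). UQCR10 (ENSG00000184076, GRCh38 chr22:29767369-29770413), a small membrane subunit, stood at 67.1, 65.3 and 84.0 CPM in the brain libraries, against 117 and 94.2 CPM in the spleen libraries. All brain libraries lay below both spleen libraries, with a log2 fold change of -0.55 (SE 0.14, adjusted p = 0.0427 by edgeR).

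The partner core protein UQCRC2 stood at 275, 249 and 285 CPM in the brain libraries, against 341 and 284 CPM in the spleen libraries. Brain replicate 3 lay just above spleen replicate 2, and the log2 fold change of -0.21 (SE 0.12) did not pass (edgeR adjusted p = 0.292). UQCRFS1, the Rieske iron-sulfur protein, had a log2 fold change of -0.32 (SE 0.17, adjusted p = 0.272 by edgeR). UQCRH, the hinge protein and at 670.2 TPM the most abundant complex III transcript per length, had -0.25 (SE 0.16). Of the other small subunits, UQCRQ had -0.56 (SE 0.18, adjusted p = 0.0936 by edgeR), UQCR11 -0.38 (SE 0.16) and UQCRB -0.02 (SE 0.16). UQCRQ was far higher in spleen replicate 1, at 146 CPM, than in spleen replicate 2, at 88.0 CPM, beside 75.5 to 85.2 CPM in brain. UQCRHL, a near-copy of the hinge gene, was counted 39, 65 and 46 times in the brain libraries, against 42 and 30 times in the spleen libraries. Per CPM it stood at 0.999, 1.31 and 1.02 in brain, against 0.957 and 0.595 in spleen, with every brain library above both spleen libraries. Its log2 fold change of 0.53 (SE 0.31) did not pass, and reads of near-identical copies are shared out by kallisto's model. Summed over the 10 members, complex III stood at 2122, 2055 and 2395 TPM in the brain libraries, against 2937 and 2527 TPM in the spleen libraries.

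In complex IV, 3 of 13 members were lower in brain and 0 higher (3.50% and 6.01% of all genes), with a median log2 fold change of -0.43. COX8A (ENSG00000176340, GRCh38 chr11:63974620-63976543), a small membrane subunit in its ubiquitous form, stood at 97.8, 113 and 133 CPM in the brain libraries, against 197 and 154 CPM in the spleen libraries. The groups did not overlap, and the log2 fold change was -0.61 (SE 0.15, adjusted p = 0.0374 by edgeR). COX7B (ENSG00000131174, GRCh38 chrX:77899440-77907376), another small membrane subunit, stood at 115, 118 and 133 CPM in the brain libraries, against 203 and 157 CPM in the spleen libraries. Spleen replicate 1 was again the highest library, with a log2 fold change of -0.56 (SE 0.13, adjusted p = 0.0296 by edgeR). COX5B (ENSG00000135940, GRCh38 chr2:97646062-97648383), a peripheral subunit on the matrix side that binds zinc, stood at 102, 104 and 111 CPM in the brain libraries, against 155 and 129 CPM in the spleen libraries. The log2 fold change was -0.43 (SE 0.11, adjusted p = 0.0432 by edgeR), with no overlap.

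COX4I1, the largest nuclear subunit, was the most abundant per length of the 44 members with transcript values, at 749.6, 827 and 903 TPM in the brain libraries, against 1192 and 1009 TPM in the spleen libraries. In CPM the groups did not overlap either, but the log2 fold change of -0.39 (SE 0.14) did not pass (edgeR adjusted p = 0.119). COX6A1, which helps hold the dimer together, stood at 186, 205 and 226 CPM in the brain libraries, against 355 and 251 CPM in the spleen libraries. Its log2 fold change of -0.56 (SE 0.15) lay just outside the threshold (edgeR adjusted p = 0.0521). COX5A had a log2 fold change of -0.45 (SE 0.14, adjusted p = 0.0796 by edgeR), and COX6B1, on the side of the intermembrane space, -0.40 (SE 0.14). For COX7A2, COX6C and COX7C the values were -0.47 (SE 0.18), -0.44 (SE 0.18) and -0.27 (SE 0.16), and none passed. COX7A2 shows how far the spleen libraries could differ, at 47.3, 47.4 and 48.5 CPM in the brain libraries, against 83.1 and 49.2 CPM in the spleen libraries. Over the 11 members with transcript values the summed level was 3759, 3831 and 4271 TPM in the brain libraries, against 5895 and 4901 TPM in the spleen libraries.

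The members of complex IV with positive fold changes were both paralogues of a ubiquitous subunit. COX7A2L (SCAF1), which joins complexes III and IV into supercomplexes, stood at 95.6, 91.2 and 106 CPM in the brain libraries, against 96.9 and 70.0 CPM in the spleen libraries. The groups overlapped, because spleen replicate 1 lay within the brain range, and the log2 fold change was 0.23 (SE 0.14, adjusted p = 0.37 by edgeR). COX8C, an isoform known from testis, had 269, 251 and 273 counts in the brain libraries, against 216 and 193 counts in the spleen libraries. The gene overlaps UNC79 on the same strand, so its counts are less certain. Per CPM every brain library lay above both spleen libraries, but the log2 fold change of 0.46 (SE 0.21) did not pass (edgeR adjusted p = 0.206). Of the summed TPM of COX8C and COX8A, COX8C made up 6.16%, 4.03% and 4.08% in the brain libraries, against 2.27% in each spleen library. Of COX7A2L and COX7A2 together, COX7A2L made up 41.5%, 41.7% and 44.4% in the brain libraries, against 28.8% and 34.6% in the spleen libraries. These shares are descriptions without a test, and COX8A was itself lower in brain. COX6B2, the testis form of COX6B1, had 7, 21 and 5 counts in the brain libraries, against 11 and 20 counts in the spleen libraries, with overlap.

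Complex V, which has the most members, also had the most calls, 5 lower and 0 higher of 19 tested (3.50% and 6.01% of all genes). All 19 log2 fold changes were negative (median -0.36). The retrocopy ATP5MGL, with 4, 1 and 5 counts in the brain libraries, against 5 and 6 counts in the spleen libraries, did not pass the filter on low counts. ATP5MC1 (ENSG00000159199, GRCh38 chr17:48892765-48895871) is 1 of 3 genes for the subunit c ring, which turns as protons pass. It stood at 53.0, 58.2 and 62.9 CPM in the brain libraries, against 100.3 and 85.4 CPM in the spleen libraries. The groups were well apart, at 58.0 ± 4.97 CPM in brain (SD, n = 3) and 92.9 ± 10.5 CPM in spleen (SD, n = 2), a log2 fold change of -0.68 (SE 0.11, adjusted p = 0.00934 by edgeR). The other genes of subunit c encode the same mature protein with other import sequences. ATP5MC3 had a log2 fold change of -0.41 (SE 0.13, adjusted p = 0.0863 by edgeR) and ATP5MC2 -0.21 (SE 0.14, adjusted p = 0.377 by edgeR), neither past the threshold. Of the summed TPM of ATP5MC1 and ATP5MC3, ATP5MC1 made up 32.1%, 33.9% and 32.6% in the brain libraries, against 37.0% and 37.5% in the spleen libraries.

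ATP5ME (ENSG00000169020, GRCh38 chr4:672436-674330) and ATP5MF (ENSG00000241468, GRCh38 chr7:99448475-99466186) encode subunits e and f of the membrane part. ATP5ME stood at 61.2, 67.2 and 85.0 CPM in the brain libraries, against 131 and 100.3 CPM in the spleen libraries. The brain libraries lay below both spleen libraries, and the log2 fold change of -0.70 (SE 0.16, adjusted p = 0.0294 by edgeR) was the most negative of all members. ATP5MF stood at 76.7, 86.0 and 92.6 CPM in the brain libraries, against 136 and 118 CPM in the spleen libraries, a log2 fold change of -0.57 (SE 0.11, adjusted p = 0.0181 by edgeR). The readthrough gene ATP5MF-PTCD1, which shares sequence with it, stood far lower at 8.97, 10.2 and 9.20 CPM in the brain libraries, against 9.30 and 11.8 CPM in the spleen libraries, and its groups overlapped (log2 fold change -0.16, SE 0.15). The remaining membrane subunits ATP5MG, ATP5MJ and ATP5MK had log2 fold changes of -0.36, -0.44 and -0.37 (SE 0.17, 0.17 and 0.13), and none passed.

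In the peripheral stalk, which keeps the catalytic head from turning, ATP5PD (ENSG00000167863, GRCh38 chr17:75038863-75046985) stood at 66.3, 62.2 and 74.3 CPM in the brain libraries, against 116 and 86.9 CPM in the spleen libraries. It was lower in brain without overlap, with a log2 fold change of -0.58 (SE 0.14, adjusted p = 0.032 by edgeR). The stalk subunits ATP5PB, ATP5PF and ATP5PO had -0.33, -0.34 and -0.30 (SE 0.13, 0.16 and 0.13) and did not pass. ATP5IF1 (ENSG00000130770, GRCh38 chr1:28236109-28246906), which inhibits ATP hydrolysis by the enzyme when the proton gradient collapses, stood at 77.9, 84.3 and 92.6 CPM in the brain libraries, against 116 and 108 CPM in the spleen libraries. Its log2 fold change was -0.40 (SE 0.11, adjusted p = 0.0464 by edgeR), without overlap between the groups.

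None of the 5 subunits of the F1 head passed in edgeR, with 2 lower at an unadjusted p under 0.05 (11.3% of all genes). ATP5F1B, the catalytic beta subunit and the member with the most counts, stood at 793, 794 and 864 CPM in the brain libraries, against 1124 and 949 CPM in the spleen libraries. The groups did not overlap, with a log2 fold change of -0.34 (SE 0.11, adjusted p = 0.0894 by edgeR). The alpha subunit gene ATP5F1A had -0.23 (SE 0.14), the gamma subunit gene ATP5F1C -0.13 (SE 0.13), ATP5F1D -0.14 (SE 0.10) and ATP5F1E -0.37 (SE 0.14). The median was -0.23 over these 5 and -0.39 over the 12 genes of the membrane part and peripheral stalk, a difference that was not tested. Over the 19 members with transcript values complex V summed to 5451, 5590.3 and 6278 TPM in the brain libraries, against 8139 and 7331 TPM in the spleen libraries.

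**Figure D2:**
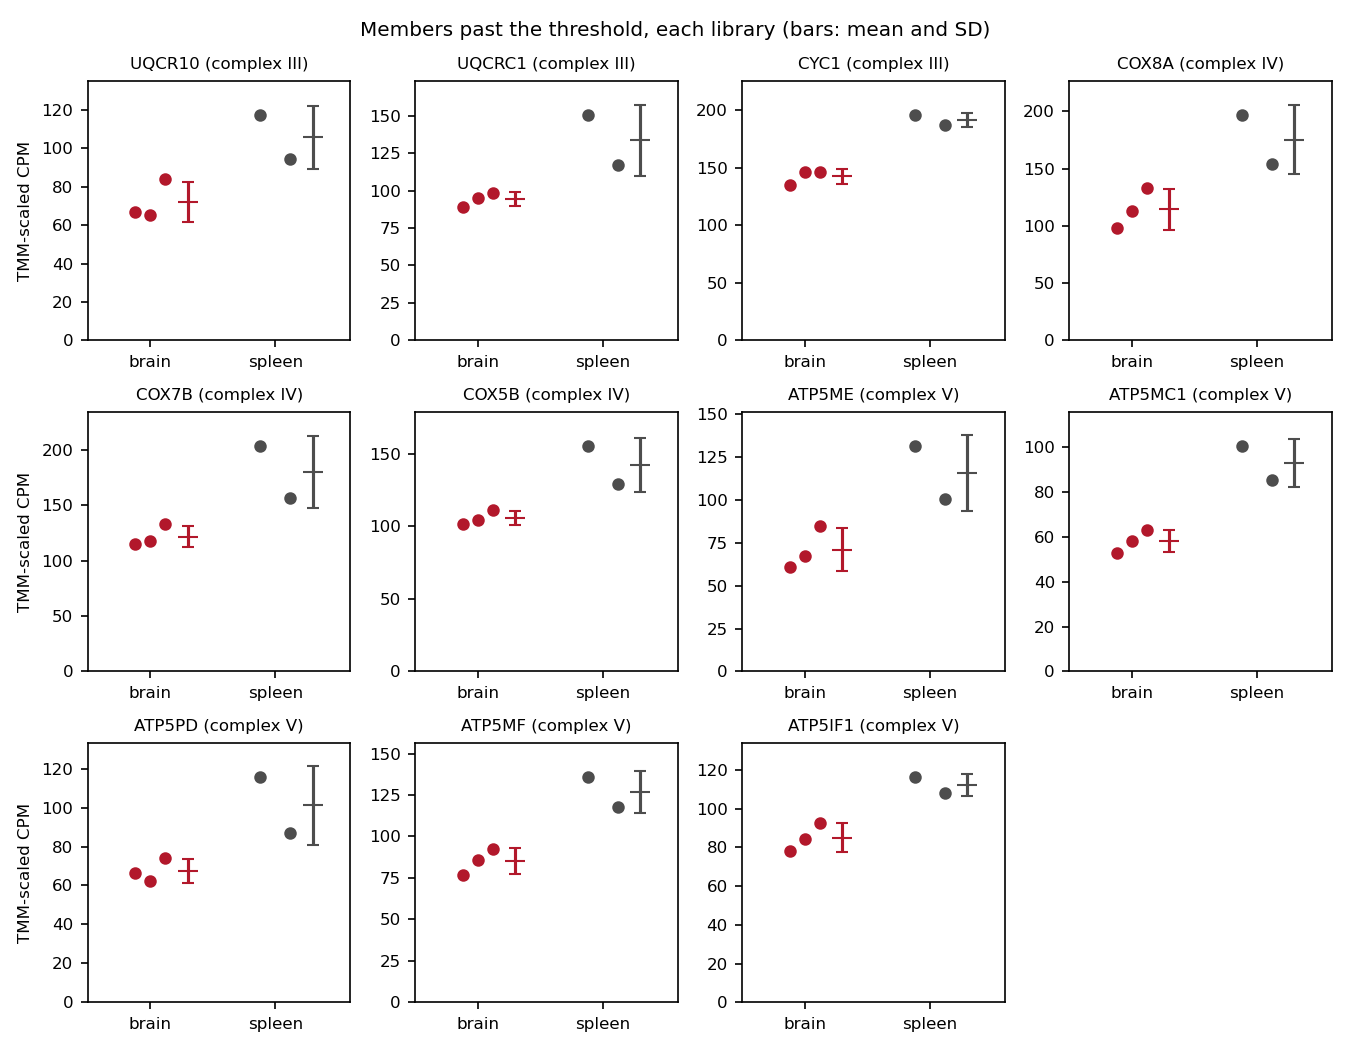
TMM-scaled CPM of the 11 members past the threshold, 1 point per library, with mean and SD beside the points. In every panel the 3 brain libraries lie below both spleen libraries, and spleen replicate 1, the left of the spleen points, is the higher spleen library.

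The spleen libraries stood at different levels. Spleen replicate 1 had the highest CPM of all 5 libraries for 40 of 46 members, against 23.0% of all genes. Spleen replicate 2 lay within the range of the brain libraries for 14 of 46, near the 33.8% of all genes that did. Relative to the midpoint of the group means on the log2 scale, the median member lay at -0.23, -0.24 and -0.044 in brain replicates 1 to 3, against 0.35 and 0.0033 in spleen replicates 1 and 2. Among the brain libraries, replicate 3 was nearest to spleen. Occasions were taken from the titles and are uncertain for spleen. Within occasion 1 brain was below spleen for 44 of 46 members (47.4% of all genes), with a median log2 difference of -0.56. Within occasion 2 it was below for 39 of 46 (48.8% of all genes), with a median of -0.22. Occasion 3 has no spleen library. Without spleen replicate 1 the median over members was -0.15 and 38 of 46 log2 fold changes were negative (50.1% of all genes), while without spleen replicate 2 it was -0.53 with 41 of 46 negative (46.4% of all genes).

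**Figure D3:**
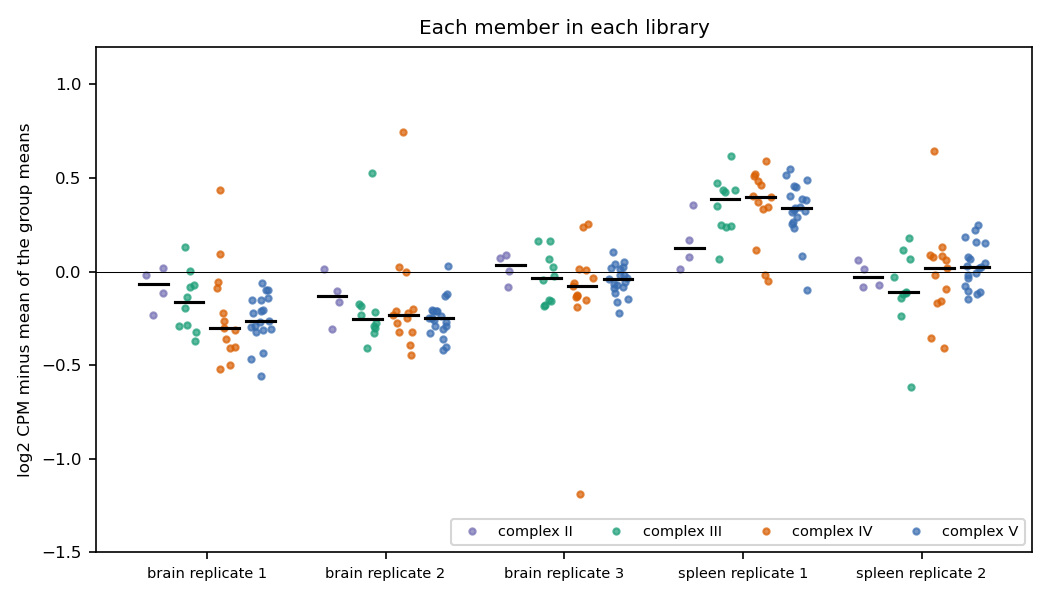
Log2 CPM of each of the 46 tested members in each library, minus the midpoint of the brain and spleen group means, coloured by complex, with medians as black lines. The members of complexes III to V lie mostly below 0 in brain replicates 1 and 2 and above 0 in spleen replicate 1, with spleen replicate 2 between.

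**Figure D4:**
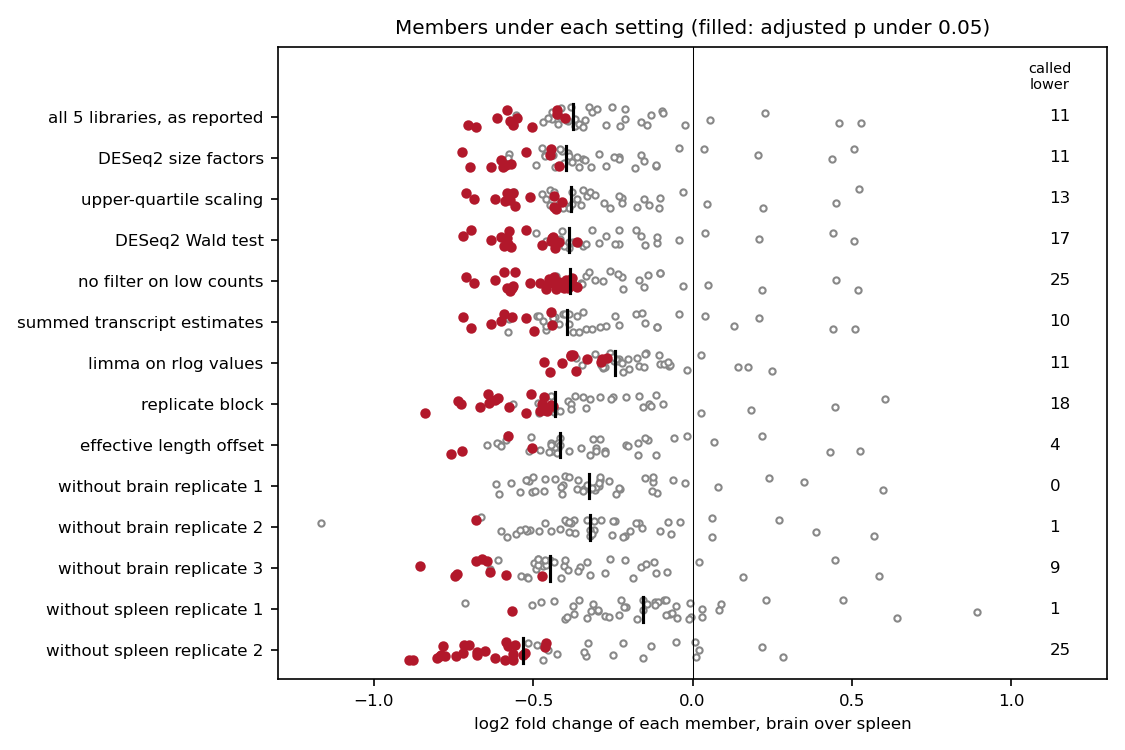
Log2 fold change of each tested member, brain over spleen, under each way of scaling, testing or leaving out a library, with medians as black lines and the number called lower at the right. The number ranges from 0 to 25, while every median is negative.

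Members with short transcripts had the more negative fold changes. Over 39 members with a mean of at least 10 CPM and transcript values, Spearman's rho between mean effective transcript length and log2 fold change was 0.63. It was 0.29 over 9759 genes of that level. Genes are not independent here, since all values come from the same 5 libraries. Members under 600 bases (21 genes, a limit set after the data were seen) lay at a median of -0.44 on the log2 scale, and longer ones (18 genes) at -0.26. All 405 genes under 600 bases had a median of -0.19, and all 9354 longer genes one of -0.010. Without spleen replicate 1, rho over members was 0.37, and the medians under and over 600 bases were -0.21 and -0.10. Over all genes of that level the same omission gave a rho of 0.11, with medians of -0.025 and -0.0025. Without spleen replicate 2, rho was 0.66 over members and 0.41 over all genes of that level. Sequenced fragments, taken as transcript length minus effective length, averaged 151, 152 and 141 bases in brain replicates 1 to 3, against 166 and 145 bases in spleen replicates 1 and 2. With each library's effective lengths as an offset, 4 members were called lower and 0 higher (1.73% of all genes were called lower), namely ATP5MC1, ATP5ME, ATP5MF and ATP5IF1, with a median over members of -0.42. Under this offset rho was 0.72 over members and 0.30 over all genes of that level. The members' medians under and over 600 bases were then -0.48 and -0.24.

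**Figure D5:**
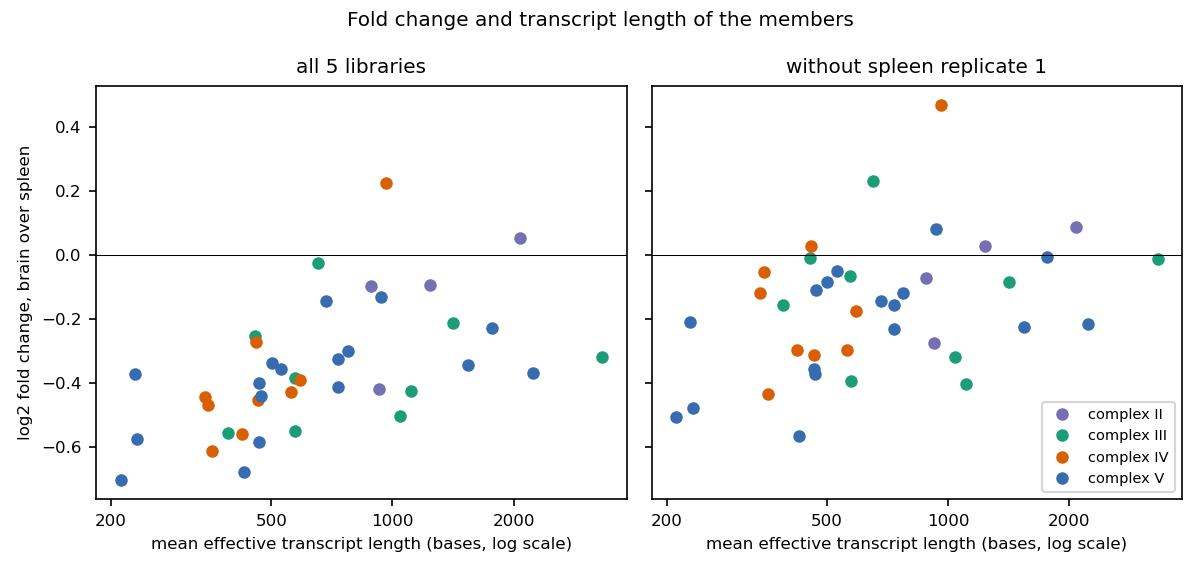
Log2 fold change of 39 members, brain over spleen, against their mean effective transcript length in bases (log scale), with all 5 libraries and without spleen replicate 1. Short members lie lowest in the left panel (rho 0.63), and the points sit nearer to 0 in the right panel (rho 0.37).

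Genes that build, accompany or control these complexes were read from 8 lists in the same fit. Of their 83 tested members, 10 were lower in brain, 0 higher by edgeR and 73 not past the threshold (3.50% of all genes were lower and 6.01% higher). At an unadjusted p under 0.05, 27 were lower and 1 higher (11.3% and 14.2% of all genes). The median log2 fold change over the 83 list genes was -0.13. Leaving out brain replicate 1 or brain replicate 2 gave 1 and 4 lower genes in that order (0.728% and 1.25% of all genes). The effective length offset gave 5 (1.73% of all genes). Without spleen replicate 1 the median over the lists was -0.082.

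Of 9 assembly factors of complex III, 2 were lower (3.50% of all genes were), with a median of -0.18. UQCC3, needed for making cytochrome b, stood at 17.3, 18.3 and 16.9 CPM in the brain libraries, against 33.4 and 24.8 CPM in the spleen libraries, a log2 fold change of -0.73 (SE 0.14, adjusted p = 0.0141 by edgeR). Leaving out brain replicate 1, or else spleen replicate 1, ended the call, with a largest adjusted p of 0.0660 by edgeR. BCS1L, which inserts the Rieske protein, had -0.49 (SE 0.13, adjusted p = 0.0466 by edgeR) and was called in 2 of 5 leave-one-out fits (adjusted p at most 0.178). Of 25 assembly factors of complex IV, 3 were lower (3.50% of all genes were), with a median of -0.16. COA1, an early assembly factor, stood at 44.7, 45.2 and 45.6 CPM in the brain libraries, against 75.0 and 61.5 CPM in the spleen libraries, with a log2 fold change of -0.60 (SE 0.11, adjusted p = 0.0122 by edgeR). The same omissions ended its call, with a largest adjusted p of 0.0649 by edgeR. SLIRP, which stabilises mitochondrial mRNAs with LRPPRC, had -0.57 (edgeR adjusted p = 0.0215) and kept its call in 2 of 5 leave-one-out fits. COA4 had -0.39 (edgeR adjusted p = 0.0395) and kept it in 0 of 5. Of 6 assembly factors of complex V, 1 was lower: ATPAF1, a chaperone of the beta subunit, with -0.46 (edgeR adjusted p = 0.0347), called in 2 of 5 leave-one-out fits. None of the 4 assembly factors of complex II passed (median -0.079), and SDHAF2, the most abundant, had -0.09.

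The 6 mitochondrially encoded subunits of complexes III to V gave 0 calls in either direction by edgeR (3.50% of all genes were lower and 6.01% higher). At an unadjusted p under 0.05 they also gave 0 (11.3% and 14.2% of all genes), and their median was -0.11. MT-CYB, the cytochrome b of complex III, stood at 2056, 2219 and 2296 CPM in the brain libraries, against 2339.9 and 2103 CPM in the spleen libraries, with overlap between groups. For the catalytic core of complex IV the log2 fold changes were 0.21 for MT-CO1, -0.11 for MT-CO2 and -0.12 for MT-CO3 (SE 0.15, 0.13 and 0.12). Without spleen replicate 1, MT-CO1 was called higher in brain, at 0.48 (adjusted p = 0.0305 by edgeR). For complex V they were -0.13 for MT-ATP6 and -0.26 for MT-ATP8 (SE 0.10 and 0.11). Mitochondrial transcripts have nuclear copies, so their values are less certain. Among cytochrome c and proteins attached to complex IV, 0 of 7 passed either way by edgeR, with 3 lower at an unadjusted p under 0.05 (11.3% of all genes). HIGD2A, the most abundant per length, had -0.01 (SE 0.14).

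Of 13 tested regulators of respiratory genes, 1 was lower and 0 higher (3.50% and 6.01% of all genes), with a median of -0.047. PPARGC1B, a coactivator of nuclear receptors that raises mitochondrial gene expression, stood at 31.6, 33.7 and 35.0 CPM in the brain libraries, against 46.0 and 52.4 CPM in the spleen libraries. Every brain library lay below both spleen libraries, a log2 fold change of -0.56 (SE 0.10, adjusted p = 0.0141 by edgeR), called in 2 of 5 leave-one-out fits (adjusted p at most 0.0748). Its relative PPARGC1A did not pass the filter on low counts. NRF1 and GABPA, named here for the promoter search after their values were seen, had -0.28 (SE 0.10, adjusted p = 0.127 by edgeR) and -0.03 (SE 0.10, adjusted p = 0.904 by edgeR). In the tricarboxylic acid cycle, 3 of 13 enzymes were lower and 0 higher (3.50% and 6.01% of all genes), with a median of -0.21. SUCLG2, a subunit of the GTP-forming succinyl-CoA ligase, stood at 18.4, 16.3 and 17.6 CPM in the brain libraries, against 27.4 and 26.7 CPM in the spleen libraries, a log2 fold change of -0.63 (SE 0.11, adjusted p = 0.0093 by edgeR) that was called in 5 of 5 leave-one-out fits. OGDH, of the oxoglutarate dehydrogenase complex, had -0.44 (edgeR adjusted p = 0.0198), called in 2 of 5, and IDH3A, of isocitrate dehydrogenase, -0.42 (edgeR adjusted p = 0.0487), called in 1 of 5.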

How the data were processed

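RNA of REH cells was sequenced from 3 brain and 2 spleen libraries with a stranded mRNA kit, per the labels' protocols. Tools listed in the submitters' processing notes are kallisto 0.42.4, cutadapt 1.5, bcl2fastq 1.8.4 and DESeq2, with the builds GRCh38 and GRCm38. The strand setting is not given in the sources used here. The deposited gene table holds estimated counts that the authors wrote as whole numbers. The deposited transcript tables hold estimated counts and TPM for 199596 human and 104229 mouse transcripts, per the file headers. The authors also deposited log2 (rlog) values, used as an alternative. In each gene table, 1 further column matches none of the samples and was left aside.

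Symbols and coordinates are from GENCODE 44 (GRCh38), which matched 86.4% of identifiers and 99.76% of counts. Counts were tested with edgeR 4.0.16 in R 4.3.3 (quasi-likelihood F test, origin site as the only term, filterByExpr, TMM scaling, Benjamini-Hochberg adjustment over 20419 genes, threshold 0.05), with 3 residual degrees of freedom. CPM use TMM-scaled library sizes. The SE is the log2 fold change divided by the square root of F. TPM were rescaled so that human transcripts alone made up the fixed total, and summed per gene, for the 44 members whose annotated transcripts held at least 90% of the gene's counts (not COX6B1, COX7B or ATP5MC2). Transcripts annotated as protein-coding held over 90% of the gene's TPM in every library for 25 of 43 tested members with transcript values. For UQCRC1 they held 23.8% to 33.4%, and for ATP5PB 0.590% to 1.39%. Values per gene therefore also count transcripts of other annotated types. Every member is named. Of other lists, up to 3 called genes by p, or the most abundant gene where none was called, and all mitochondrially encoded subunits are named.

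Members, lists and tests were chosen with earlier results of these data known. Replicate numbers mark shared occasions per the labels, which would pair the libraries. The main test does not use this pairing, and the replicate block does. The difference between replicates 1 and 2 in brain correlated weakly with that in spleen over 12970 genes (r = 0.17), which does not settle the pairing. The column names of the spleen libraries carry the numbers 2 and 4 where the titles say 1 and 2, and titles were followed. The pairing of spleen with brain libraries is therefore uncertain. Each library is a pool of 5 mice, so p-values cover pools and occasions, not single animals. Many members have pseudogenes or near-copies, and 17 overlap a gene on the opposite strand, among them 6 of the 11 called, so their counts are less certain. Alternatives were DESeq2 size factors, upper-quartile scaling, the Wald test of DESeq2 1.42.0, no filter, summed transcript estimates, limma 3.58.1 on the rlog values, the replicate block, each library left out and, added after seeing the data, an effective length offset.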

Additional observations from a re-analysis of the deposited data

How the results depend on the processing

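No member was called higher under any of the 13 alternatives, and the median over members was negative under each. The count of members called lower was 11 as reported (3.50% of all genes) and 17 with the DESeq2 Wald test (6.94%). It was 25 with no filter on low counts (3.46%) and 18 with the replicate block (3.97%). With the effective length offset, an alternative chosen after seeing the data, it was 4 (1.73%). It was 0 to 25 with 1 library left out, and the median log2 fold change was then between -0.53 and -0.15. It stayed within 1.5 times of 11 with DESeq2 size factors (11), upper-quartile scaling (13), summed transcript estimates (10) and limma on rlog values (11). The replicate block changed none of the 11 calls and added 7. In that fit brain replicate 3 has no spleen partner, so the contrast rests on replicates 1 and 2. It also leaves fewer residual degrees of freedom than the main fit.

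Genes of the other lists called lower, 10 as reported, numbered 17 with the DESeq2 Wald test, 18 with no filter and 5 with the effective length offset, and 1 to 15 with 1 library left out. Those called higher numbered 0 to 1 when a library was left out, the 1 being MT-CO1 without spleen replicate 1. Signs were checked for tested members, called list genes, mitochondrially encoded subunits and the most abundant gene of each list without calls. Among these, signs changed for 12 genes, none of them called with all libraries. Signs of the other list genes were not checked. ATP5MC2 had 0.13 with summed transcript estimates. There its annotated transcripts held only a share of 0.041 of the gene's counts. For COX7B, which kept its call in that setting, the share was 0.50, and for COX6B1 it was 0.0096. With 1 library left out, log2 fold changes ranged from -0.53 to 0.029 for COX7C, which was called lower without spleen replicate 2 (adjusted p = 0.0358 by edgeR), -0.33 to 0.020 for ATP5MF-PTCD1, -0.25 to 0.23 for UQCRB, -0.33 to 0.082 for ATP5F1C, -0.22 to 0.028 for SDHD, -0.27 to 0.11 for SDHAF2, -0.20 to 0.21 for HIGD2A, -0.098 to 0.050 for MT-CYB, -0.030 to 0.48 for MT-CO1, -0.30 to 0.10 for MT-CO2 and -0.29 to 0.064 for MT-CO3. The cause of these shifts was not tested. With 1 spleen library left, its spread is assumed to be that of the brain libraries.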
